A study of Mus musculus with 3 samples.

Results

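The first passage step, from P0 to P1, was examined in mouse embryonic stem cells in which the gene Pold3 can be knocked out by induction. The cells were of the KH2 line, an established line of mouse embryonic stem cells, and both libraries came from the same Pold3 inducible-knockout line, differing by the passage that names them. Whether the passages were kept as separate cultures, or one followed from the other, is not stated, nor is whether the line is 1 clone. The labels do not say which agent induced the knockout, when it was given relative to P0, or whether P0 is an uninduced culture. There was 1 library per passage, so the comparison sets 1 library beside another, has no replicate check, and carries no p-value. A further passage, P2, belongs to the series and is not part of the comparison. The question of the series is how the transcriptome changes over passages.

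Expression was taken from the authors' deposited table of FPKM, a read density scaled to gene length and library size, so levels of different genes can be compared per length. The totals behind the values were 23213528 reads at P0 and 18059914 at P1. Genes were compared when they reached FPKM 1 in 1 or both libraries, which held for 13288 of 50043 gene IDs, against 13758 that reached it in 1 or more of the 3 libraries of the series. Differences are given as P1 minus P0 in log2(FPKM + 1). Adding 1 shrinks the differences of low genes on this scale. A gene is said to have risen or fallen, or to have passed 2-fold, when this difference was at least 1 in size. Ratios are of FPKM itself, with exact conditional 95% intervals (Clopper-Pearson) on the reads recovered from FPKM. The reads carry no molecular identifiers, so these intervals describe counting error and nothing else. Genes with near-identical copies, genes that overlap and antisense genes are uncertain throughout, as the counting of shared reads and the use of strand are not known.

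As background, the Pold3 protein is an accessory subunit of polymerase delta, which extends Okazaki fragments on the lagging strand, and the same protein also serves in polymerase zeta, which copies past damaged bases. Cells that replicate with a limiting polymerase can accumulate replication stress, which activates checkpoint kinases and the transcription factor p53. Embryonic stem cells have a short G1 phase and express p53 at a high level. Naive stem cells are held in the undifferentiated state by LIF signalling and a network of transcription factors, and they move towards a primed, epiblast-like state when that network weakens.

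The labelled cell type was checked first. The 8 stem cell markers checked, among them Pou5f1, Nanog and Sox2, measured between 179 and 1089 FPKM at P0 and between 127 and 1107 at P1. Their summed level was 4095 and 3946 FPKM. Fibroblasts are a common feeder layer for such cultures. Of 10 fibroblast markers 3 reached FPKM 1 in each library, with a summed level of 12.6 and 20.8 FPKM. The 3 were Col1a1, at 1.98 and 5.63 FPKM, Thy1, at 4.21 and 9.83, and Twist1, at 5.65 and 4.08. Postn had no reads in either library, Lum had 1 read in each, and Dcn had 2 and 6. None of 5 blood cell markers reached FPKM 1.

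Most genes lay close to their P0 level. Of the genes compared, 10898 (82.0%) differed by less than 0.5 on the log2 scale, and the median difference was 0.06. Between P0 and P1, 548 genes rose, which is 4.12% of the genes compared, and 73 fell, which is 0.549%, for 4.67% past 2-fold in all. Rises thus made up 88.2% of the changed genes. Quantile normalization, which forces the same distribution on both libraries, left this share at 76.1%, with 378 genes higher and 119 lower. A counting interval of the ratio that left out 1 was found for 498 of the rises and 43 of the falls. Reads were 0 at P0 for 49 of the genes that rose and 0 at P1 for 26 of those that fell.

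**Figure D1:**
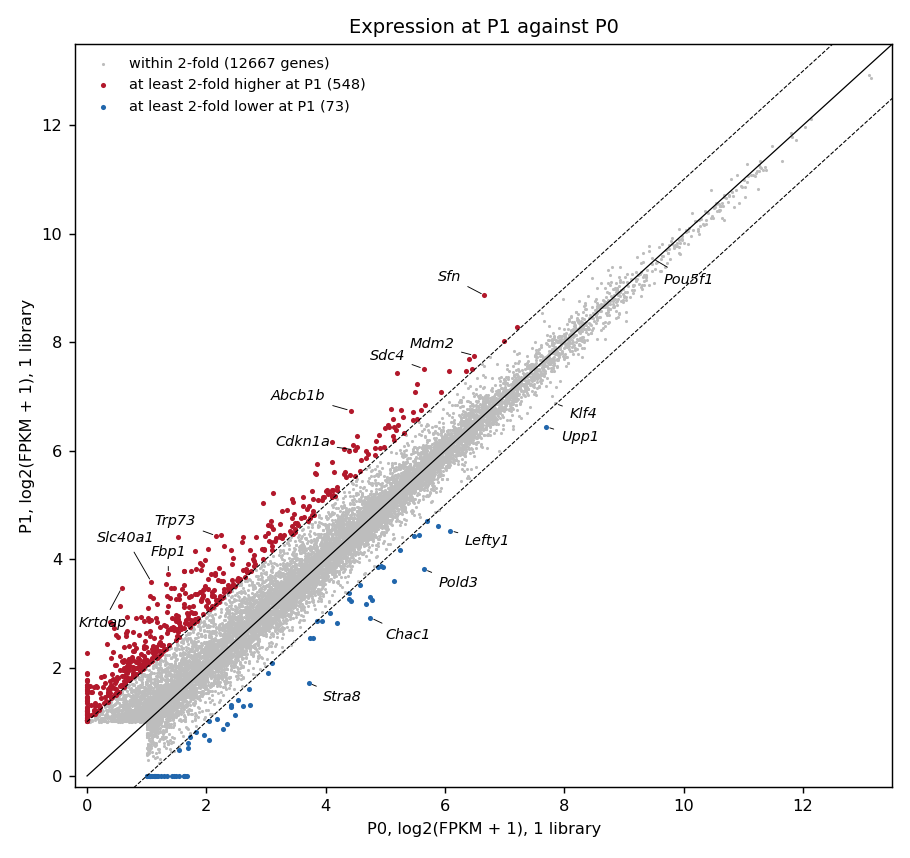
Expression of 13288 genes as log2(FPKM + 1) in the P0 library (x axis) and the P1 library (y axis), 1 point per gene, with the line of equality solid and the limits of a difference of 1 dashed. The 548 genes above the upper dashed line outnumber the 73 below the lower one, and the most abundant genes, with Pou5f1 among them, lie near the solid line.

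The genes that rose were mostly low. Their median level was 1.65 FPKM at P0 and 6.13 at P1, and together they took up 0.530% of all FPKM at P0 and 1.49% at P1. Of them, 212 (38.7%) were below FPKM 1 at P0 and so were compared only because they were higher at P1. Genes with FPKM of at least 1 numbered 12303 at P0 and 13015 at P1. The share of genes past 2-fold upward was 6.69% at a mean level of 1 to 2 FPKM, 2.63% at 10 to 20 FPKM and 0.750% at 100 FPKM and over, while the shares downward were 0.715%, 0.526% and 0.0750%. Rises were thus more frequent than falls in each of the levels named. Closest to the upper limit, Slit1 lay just inside at 1.0012 and Cited4 just outside at 0.9998. Closest to the lower limit among genes with a name other than a model number, Trib3 lay just inside at -1.0019 and Stc2 just outside at -0.9997.

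**Figure D2:**
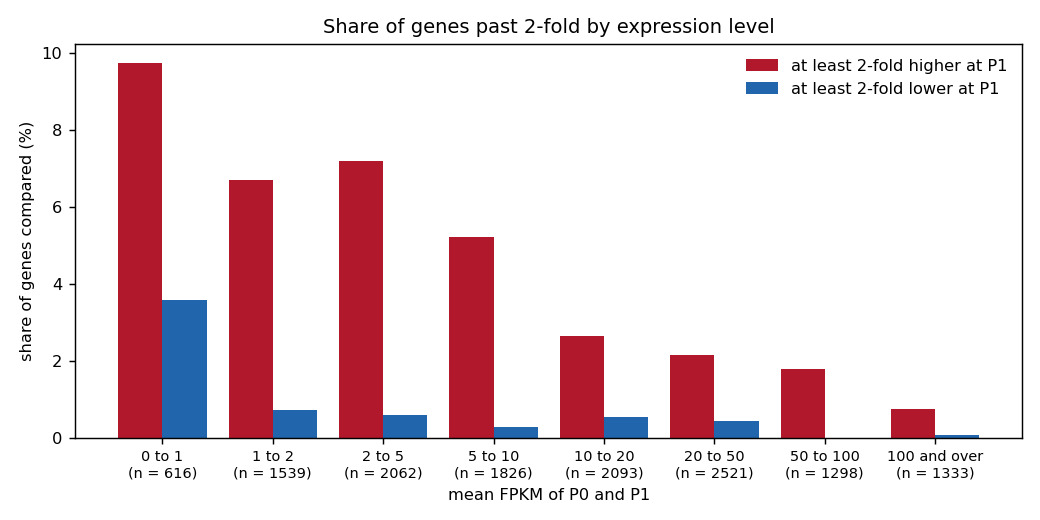
Share of the genes compared (y axis, %) that were at least 2-fold higher (red) or lower (blue) at P1, by mean FPKM of both libraries (x axis, with the number of genes in each level). The red bar is the taller one at each level, and the shares go from 9.74% and 3.57% at the lowest level to 0.750% and 0.0750% at the highest.

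The targeted gene fell. Pold3, on chromosome 7, measured 49.2 FPKM at P0 and 13.03 at P1, from 1389 and 286 reads. The P1 library was 3.78-fold lower (interval 3.32 to 4.31), and the fall in log2(FPKM + 1) was second to that of Stra8 among the named genes that reached FPKM 5. In RNA from a whole culture, less Pold3 RNA in each cell and fewer cells that express it cannot be told apart. The other subunits of polymerase delta stayed within 2-fold. The catalytic subunit Pold1 differed by 0.20 and the regulatory subunit Pold2 by -0.21, while the small subunit Pold4 differed by 0.84 from 1.80 FPKM at P0. On the scale with a pseudocount of 0.1 the difference of Pold4 was 1.12, past the limit.

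The rest of the replication machinery stayed within 2-fold. Of 19 measured genes for polymerase delta, its clamp and its partners, 0 rose and 0 fell, and the same held for the 40 other replication fork genes, with medians of 0.11 and 0.12 beside 0.06 over all genes, of which 4.12% rose. Both medians were slightly below 0 under median-of-ratios scaling. The 4.12% is not matched for level. The lists summed to 2355 and 4317 FPKM at P0. Of all genes at a mean level of 50 to 100 FPKM 1.77% rose, and of those at 100 FPKM and over 0.750%. The sliding clamp gene Pcna differed by 0.13, the clamp loader gene Rfc2 by 0.39 and Rnaseh2c, a subunit of the enzyme that removes ribonucleotides, by 0.45. Among origin and fork genes Cdc6, which loads the replicative helicase, differed by 0.43, Orc6 by 0.36 and Rrm2, a subunit of ribonucleotide reductase, by 0.35. None of 34 genes of homologous recombination and the Fanconi pathway passed 2-fold, with Rad51d at 0.59 and Fancg at 0.55. None of 21 checkpoint genes did either, and the lowest of them were Hus1, a subunit of the checkpoint clamp, at -0.62 and H2afx, the histone variant phosphorylated at DNA breaks, at -0.50. Telomere genes held no call among 18 members, with the telomerase RNA Terc at 0.91 (1.52 with a pseudocount of 0.1) and the shelterin gene Terf1 at -0.46.

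Genes of the p53 network were among those that rose. p53 is a transcription factor that halts the cell cycle or triggers cell death after DNA damage, and Mdm2 is both its target and the ligase that degrades it. The p53 gene itself, Trp53, measured 267 and 261 FPKM, a difference of -0.03. Its relative Trp73 measured 3.48 FPKM at P0 and 20.5 at P1, which was 5.90-fold (interval 5.05 to 6.92). Trp73 was therefore low at P0 and well expressed at P1, while Trp63, the remaining relative, was below FPKM 1 in both libraries. Of 14 regulators of p53, Mdm2 rose from 89.0 to 215 FPKM and Ccng1, the cyclin G1 gene, from 80.4 to 176 FPKM. The difference of Ccng1, 1.12, was 0.99 under median-of-ratios scaling. The phosphatase gene Ppm1d differed by 0.65 and Mdm4 by 0.39, and Usp7, a deubiquitinase of Mdm2 and p53, by -0.31.

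Of 69 genes listed as p53 targets, all of them measured, 20 rose and 0 fell, beside 4.12% and 0.549% over all genes, and 62 lay above 0. Their median difference was 0.54. Each of the arrest genes reached FPKM 1 at P0, and so did all but 4 of the rest, which had to be higher at P1. Split by what the targets do, 10 of 18 growth arrest genes rose, 4 of 18 cell death genes and 8 of 36 genes of metabolism and other roles, with medians of 1.03, 0.46 and 0.51. Some members stand in more than 1 of the groups, and the difference between the groups was not tested.

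Among the growth arrest targets Sfn was the most abundant at P1. It encodes 14-3-3 sigma, a protein that sequesters cell cycle kinases in the cytoplasm, and it measured 100.3 FPKM at P0 and 465 at P1, a ratio of 4.64 (interval 4.47 to 4.81). It came from 3754 and 13548 reads, and its level at P1 exceeded that of Ywhaq, Ywhag, Ywhah and Ywhab. It was near that of Ywhaz, at 455 FPKM, and below that of Ywhae, at 1065.5. The 6 other 14-3-3 genes, which are expressed in most cells, stayed within 2-fold, from Ywhae at -0.18 to Ywhag at 0.10, and of the family only Sfn passed it. Cdkn1a, the CDK inhibitor p21, rose from 21.4 to 63.6 FPKM (ratio 2.97, interval 2.70 to 3.28). Btg2, an antiproliferative gene, rose from 13.3 to 46.6 FPKM, the kinase gene Plk2 from 16.1 to 54.5 and Trp53inp1, which promotes arrest and death, from 34.1 to 94.4. Phlda3, an inhibitor of AKT signalling, rose from 60.1 to 134 FPKM. The rises of Rprm, an inducer of G2 arrest, and Mxd4 were within 2-fold under median-of-ratios scaling, at 0.93 and 0.94, and under quantile normalization, at 0.85 and 0.84. Gadd45a and Zmat3, also known p53 targets, differed by 0.59 and 0.22. Ptprv, a phosphatase gene reported as a p53 target in mice and not on the list, rose from 6.69 to 31.8 FPKM.

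Among cell death targets, Perp, a membrane protein of desmosomes, rose from 33.0 to 108 FPKM and Apaf1, the scaffold of the apoptosome, from 20.3 to 46.2. The death receptor gene Fas rose from 0.422 to 2.55 FPKM, from 10 and 47 reads. The BH3-only genes Bbc3, which encodes Puma, and Pmaip1, which encodes Noxa, differed by 0.53 and 0.67, and the effector gene Bax by 0.11. Perp, Apaf1, Fas and Trp53inp1 were the 4 members past 2-fold.

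Targets with metabolic and other roles included the drug efflux pump gene Abcb1b, which measured 20.4 and 106 FPKM (ratio 5.19, interval 4.79 to 5.63), and the peptide transporter gene Tap1, at 2.55 and 13.1 FPKM. Abcb1a, the close paralog of Abcb1b, differed by 0.54, and reads may be shared between such copies. The reductase gene Dcxr rose from 18.8 to 64.5 FPKM, the epoxide hydrolase gene Ephx1 from 9.21 to 29.0 and Ddit4, an inhibitor of mTORC1, from 37.3 to 107. Repair genes under p53 stayed within 2-fold, with Ercc5 at 0.986, Polk at 0.73, Ddb2 at 0.32, Rrm2b at 0.53 and Xpc at -0.26. Ercc5 passed the limit with a pseudocount of 0.1. Sesn1 and Sesn2, stress-induced regulators of mTORC1, differed by -0.26 and 0.17.

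**Figure D3:**
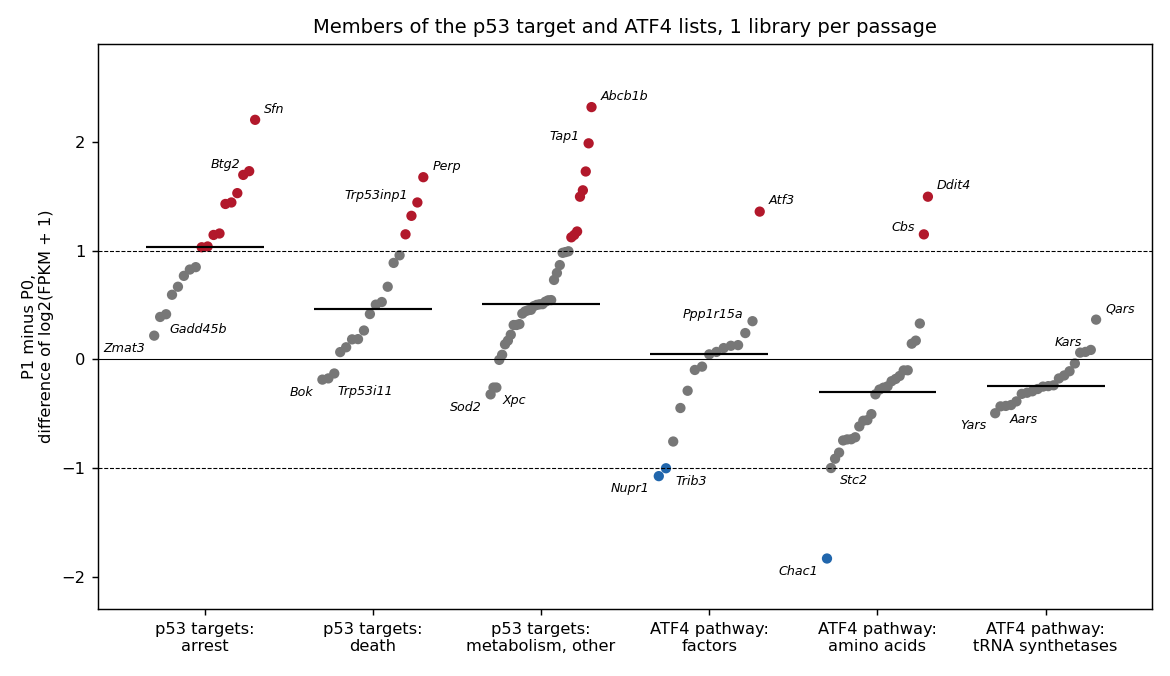
Difference between P1 and P0 in log2(FPKM + 1) (y axis) for the measured members of 3 p53 target lists and 3 ATF4 lists (x axis), 1 point per gene, red at 1 or above, blue at -1 or below, with a bar at each list's median. The p53 lists lie mostly above 0, up to Abcb1b at 2.32, and the amino acid and tRNA synthetase lists mostly below, down to Chac1 at -1.83.

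Promoter sequence was looked at for both sets of lists, in windows of 300 bases from 250 before to 50 after each RefSeq start (GRCm38.p6). A full p53 consensus site, a pair of copies of a 10-base element with at most 13 bases between them, was found in 20 of 27025 genes (0.0740%) and in 1 p53 target listed, Cdkn1a. It lay 73 to 42 bases before 1 of the RefSeq starts of that gene. The window around it, chr17:29090886-29090957 on the plus strand, is shown with the site in capitals. It was chosen because it holds the match among the targets that rose.
Cdkn1a: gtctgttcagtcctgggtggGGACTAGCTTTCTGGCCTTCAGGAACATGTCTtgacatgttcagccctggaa

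Amino acid and tRNA synthetase genes of the ATF4 pathway lay mostly below their P0 levels, and its factors did not. ATF4 is translated when amino acids are scarce or the endoplasmic reticulum is stressed, and it induces genes that make and import amino acids and that charge tRNAs. Atf4 itself measured 141 FPKM at P0 and 82.9 at P1, a difference of -0.76 (ratio 0.589, interval 0.558 to 0.622). Over the 61 measured members of the 3 ATF4 lists, 44 lay below 0 and the median was -0.25, but 3 fell and 3 rose, against 0.549% and 4.12% over all genes. Chac1, an enzyme that degrades glutathione, stood at 25.9 FPKM in P0 and fell to 6.56 in P1 (3.95-fold lower, interval 3.38 to 4.63). Nupr1, a stress-induced chromatin protein gene, fell from 15.8 to 6.99 FPKM and Trib3, a pseudokinase gene, from 51.2 to 25.1. Trib3 stood at the limit, with a difference of -1.0019 that was -0.9997 once both libraries were scaled to the same sum.

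Enzymes and transporters of the amino acid list had a median of -0.30. The mitochondrial folate enzyme gene Mthfd2 differed by -0.91 (-1.04 under median-of-ratios scaling), Aldh18a1, which starts proline synthesis, by -0.86, the proline enzyme gene Pycr1 by -0.74 and Asns, asparagine synthetase, by -0.56. Psat1, Phgdh and Shmt2, enzymes that make serine and glycine, differed by -0.62, -0.18 and -0.25. Members that rose were Ddit4, which is also a p53 target, and Cbs, a transsulfuration enzyme, from 29.0 to 65.5 FPKM. The tRNA synthetase list had a median of -0.25 with 16 of 20 below 0 and none past 2-fold, from Yars at -0.50 to Qars at 0.36. The list of ATF4 factors, which also holds the kinases upstream of ATF4, had a median of 0.05 with 8 of 15 above 0. Among them Atf3, which other stresses induce too, rose from 2.82 to 8.78 FPKM, and the eIF2 alpha kinase gene Eif2ak3 differed by 0.24. The unfolded protein response list, 22 genes, had a median of 0.23, with the chaperone gene Hspa5 at 0.47, Herpud1 at -0.92 (-1.05 under median-of-ratios scaling) and Derl3, which rose, at 1.0111. The difference of Derl3 was 0.90 under median-of-ratios scaling and 0.86 under quantile normalization.

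The ATF4 lists were searched for the core of the C/EBP-ATF response element, TGATGNAA, on both strands and in the same windows. It was found in 4.51% of all genes in the promoter table and in 17 of the 51 list members that the table holds (33.3%). Of 14 measured members with the motif, 13 lay below 0, with a median of -0.46, and of 34 without it 21 did, with a median of -0.13. The difference between these medians was not tested. The motif was also found in Sfn, which rose, and in Atf3, which rose, so holding it did not go with a fall in every gene. The windows shown are upstream of RefSeq starts and run along the gene, with the motif or its reverse complement in capitals. They were chosen for the largest fall in these lists (Chac1), 2 further members with values above, a tRNA synthetase gene (Aars) and Atf3 and Sfn, which rose.
Chac1: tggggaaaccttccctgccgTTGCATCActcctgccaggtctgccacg
Nupr1: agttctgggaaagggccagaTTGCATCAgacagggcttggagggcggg
Pycr1: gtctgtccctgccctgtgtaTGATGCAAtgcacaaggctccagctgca
Aars: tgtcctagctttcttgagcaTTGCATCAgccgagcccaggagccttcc
Atf3: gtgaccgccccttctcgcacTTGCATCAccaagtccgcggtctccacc
Sfn: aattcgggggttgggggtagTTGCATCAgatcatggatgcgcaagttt
The windows lie at chr2:119351029-119351076 (plus strand), chr7:126625553-126625600 (minus), chr11:120643824-120643871 (minus), chr8:111033710-111033757 (plus), chr1:191183416-191183463 (minus) and chr4:133602247-133602294 (minus) in GRCm38.p6. The motif began 193 bases before the start in Chac1, 110 in Nupr1 and in Atf3, 112 in Aars, 103 in Pycr1 and 106 in Sfn. A match describes these letters and does not show that a factor binds them.

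Cell cycle genes outside the p53 targets stayed mostly within 2-fold. Of 19 G1 cyclin, CDK and E2F genes and 28 mitotic genes none passed 2-fold, beside 4.67% over all genes. The lists summed to 1855 and 3912 FPKM at P0. Of all genes at a mean level of 100 FPKM and over, 0.750% rose and 0.0750% fell. Ccnd1, the cyclin D1 gene, differed by 0.57, the proliferation marker Mki67 by -0.55 and the mitotic kinase gene Plk1 by -0.45. CDK inhibitors passed 2-fold in both directions. Cdkn2b, the p15 inhibitor gene, rose from 0.526 to 3.30 FPKM from 17 and 83 reads, while Cdkn1b, the p27 gene, fell from 13.48 to 6.20. The retinoblastoma gene Rb1 differed by 0.93 and its relative Rbl1 by -0.70.

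Naive pluripotency genes lay mostly below their P0 levels, none of them past 2-fold, beside 4.67% over all genes. All 25 were expressed at P0 above the floor, 22 lay below 0 and the median was -0.49, against 0.06 over all genes. The factors Klf4, Tfcp2l1 and Esrrb measured 229, 56.2 and 221 FPKM at P0 and 116, 28.3 and 127 at P1, differences of -0.97, -0.96 and -0.79. Klf4 and Tfcp2l1 passed the limit under median-of-ratios scaling, at -1.10 and -1.09, and Tfcp2l1 also under quantile normalization, at -1.02. The LIF receptor subunits encoded by Lifr and Il6st, which carry the signal that maintains the naive state, differed by -0.64 and -0.76, and Cntfr, a receptor of the same cytokine family, measured 58.7 and 29.0 FPKM, just short of the limit at -0.99. Cntfr passed it with a pseudocount of 0.1, at -1.02, under median-of-ratios scaling, at -1.12, and under quantile normalization, at -1.05. Stat3, which transmits it, differed by -0.34 and its target Socs3 by -0.22. Klf2 and Klf5 differed by -0.17 and -0.20, less than Klf4 did, and Dppa3 and Nr5a2 lay above 0, at 0.44 and 0.27.

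The core factors lay near their P0 levels. Pou5f1, Sox2 and Nanog differed by 0.07, -0.26 and -0.11, and none of 14 core genes passed 2-fold, with Zfp42 at -0.50 and Lin28a, an RNA-binding regulator of let-7, at -0.42. Genes of the primed epiblast passed 2-fold in both directions, 3 up and 2 down among 21, beside 4.12% and 0.549% over all genes. Fgf5, a growth factor that marks the primed state, rose from 0.111 to 2.18 FPKM on 4 and 61 reads, Pou3f1 from 12.8 to 28.7 and Grhl2, a regulator of epithelial enhancers, from 14.5 to 34.3. Fgf5 was below FPKM 1 at P0 and so was compared only because it was higher at P1, while the 20 other measured genes reached the floor at P0. The difference of Pou3f1 was 0.98 under median-of-ratios scaling. Otx2 differed by 0.87 and Dnmt3b by 0.03. The zinc finger genes Zic2 and Zic5, neighbours on chromosome 14, measured 25.7 and 17.2 FPKM at P0, and both fell, to 8.84 and 6.03 at P1.

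Within Nodal signalling the ligand and its inhibitors moved in opposite directions. Nodal is a TGF-beta family ligand, and the Lefty proteins, which its signal normally induces, block it. Nodal measured 35.2 FPKM at P0 and 82.4 at P1 (ratio 2.34, interval 2.20 to 2.48). Lefty1 measured 67.2 and 22.01 FPKM, 3.05-fold lower at P1 (interval 2.75 to 3.40), and Lefty2, its close paralog, 57.8 and 23.4 FPKM, 2.47-fold lower (interval 2.25 to 2.71). The coreceptor gene Tdgf1 differed by 0.13, the receptor gene Acvr2b by 0.0033 and the nuclear effectors Smad2 and Foxh1 by 0.02 and 0.07, all within 2-fold. Inhbb, an activin subunit gene, differed by -0.94, while Smad7, an inhibitory target, differed by -0.38. Inhbb passed the limit under median-of-ratios scaling and quantile normalization, at -1.06 and -1.01.

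Of 17 measured BMP pathway and Id genes, 2 rose and none fell, beside 4.12% and 0.549% over all genes, and the median was 0.15. Id1 and Id3, inhibitors of differentiation that BMP induces, rose from 65.9 to 175 FPKM and from 34.3 to 85.3 FPKM, while the ligand gene Bmp4 differed by -0.44, the receptor gene Bmpr1a by -0.03 Id2 by 0.84 and Id4 by 0.25. Of 25 measured Wnt genes, 18 of them above the floor at P0, 3 rose and 2 fell, beside 4.12% and 0.549% over all genes. The ligands Wnt6, Wnt5a and Wnt3 rose from 1.09, 0.770 and 0.672 to 6.37, 4.11 and 3.37 FPKM. Wnt5a and Wnt3 were below FPKM 1 at P0 and so were compared only because they were higher at P1. The receptor gene Fzd5 fell from 30.2 to 13.55 FPKM, as did the homeobox gene Cdx1, and the Wnt inhibitor gene Sfrp1 differed by -0.80. Axin2, a general target of the pathway, differed by -0.39, Sp5 by 0.09 and Znrf3 by -0.02. Lgr5 and Rnf43, also on the list, differed by 0.82 and 0.70, and by 2.08 and 1.46 with a pseudocount of 0.1. The ligands that rose were thus low at P0.

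Of 26 genes that respond to FGF and ERK signalling 3 rose and 1 fell, beside 4.12% and 0.549% over all genes, with Spry4 at 0.02, Dusp6 at 0.15 and Egr1 at -0.16. Fosl1 and Jun, subunits of the AP-1 transcription factor, rose from 2.09 to 10.4 FPKM and from 3.61 to 8.61 FPKM, and the receptor gene Fgfr4 from 1.72 to 5.69. The difference of Jun was 0.95 under median-of-ratios scaling and 0.92 under quantile normalization. Etv1, an ETS factor gene, fell from 19.9 to 8.65 FPKM.

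Some genes induced by retinoic acid fell. Stra8, a gene that retinoic acid induces at the entry into meiosis, had the largest fall by the rule for named genes, at 12.2 FPKM in P0 and 2.28 in P1 (5.34-fold lower, interval 3.97 to 7.31). Cdx1, a homeobox gene under retinoid and Wnt control, fell from 4.60 to 1.17 FPKM, from 187 and 37 reads. The receptor gene Rara differed by -0.71, Crabp1, a retinoid-binding protein gene, by 0.85, and Aldh1a3, which makes retinoic acid, rose from 0.701 to 3.01 FPKM. The classical targets Rarb and Cyp26a1 were at 0.0852 and 0.437 FPKM in P0 and 0.0183 and 0.344 in P1, below the floor. The list as a whole, 16 measured of 27, had a median of -0.02. The noncoding transcript Halr1, next to the Hoxa cluster, fell from 34.4 to 11.2 FPKM, and 3 of the 39 Hox list members reached the floor.

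Chromatin genes included a pair of marked falls. H1f0, a linker histone gene that replicating cells express little of as a rule, stood at 26.4 FPKM in P0 and fell to 8.45 in P1 (3.12-fold lower, interval 2.77 to 3.52). H2afy2, a macroH2A gene, stood at 24.5 and fell to 8.02 (3.06-fold lower, interval 2.70 to 3.47), and its paralog H2afy differed by -0.52. They were the members past 2-fold among 13 histone variant and linker histone genes, of which 11 lay below 0. Over all genes 0.549% fell, 4.67% passed 2-fold in either direction and 57.6% lay above 0. The replication-dependent histone gene Hist1h2ap fell from 46.6 to 20.7 FPKM, though histone genes of this kind have near-identical copies that can share reads. Neither the 25 Polycomb genes nor the 17 DNA methylation genes held a call, with Kdm2b at 0.59, Yaf2 at -0.64 and the demethylase genes Tet1 and Tet2 at -0.61 and -0.52.

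Epithelial and epidermal genes rose in part. Of 42 keratin and epidermal genes, 9 rose and none fell, beside 4.12% and 0.549% over all genes. The floor was reached by 22, 15 of them at P0 already, and the median over all 42 was 0.35. Members below it at P0, with Krtdap, Sbsn, Krt13, Krt15 and Krt5 among them, had to be higher at P1 and could not fall. Krtdap and Sbsn, secreted proteins of the upper epidermis, measured 0.499 and 0.363 FPKM at P0 and 10.1 and 5.65 at P1, with 4 and 11 reads behind the P0 values. With so few reads, counting error leaves the Krtdap ratio anywhere between 7.53 and 76.6. Krt13, Krt15 and Krt5, keratins of stratified epithelia, rose from 0.762, 0.180 and 0.0393 to 6.58, 2.55 and 2.17 FPKM, and Krt19, a keratin of simple epithelia, from 3.60 to 11.2. The desmosomal plaque genes Evpl and Ppl rose from 3.26 to 9.56 and from 1.68 to 5.64 FPKM. Krt8 and Krt18, the keratin pair of early embryonic epithelia, differed by 0.93 and 0.77, and Krt6a, Sprr1b and Cnfn, markers of later keratinization, had 0 FPKM in both libraries.

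Junction genes were mostly expressed at P0 already. Of 33 measured epithelial junction genes, 6 rose and none fell, beside 4.12% and 0.549% over all genes, and the median was 0.47. Cldn6 and Cldn4, tight junction proteins, rose from 38.3 to 97.1 FPKM and from 43.0 to 93.7 FPKM, and St14, a membrane protease gene, from 47.4 to 107. E-cadherin, encoded by Cdh1, differed by 0.25 and Epcam by -0.03. The rises of Cldn4, Marveld3 and Rab25 were within 2-fold under median-of-ratios scaling, at 0.98, 0.91 and 0.92, and those of Marveld3 and Rab25 under quantile normalization, at 0.88 and 0.98. Among mesenchymal markers Zeb1, a repressor of epithelial genes, fell from 4.33 to 1.48 FPKM, Vim, the vimentin gene, differed by -0.90 (-1.03 under median-of-ratios scaling) and Fn1 by -0.40, while Sparc, a matrix protein gene, rose from 126 to 259.8. Sparc was at 0.91 under median-of-ratios scaling. Calcium-binding S100 proteins and annexins held 4 rises among 15 measured of 26 listed, 12 of them above the floor at P0, beside 4.12% over all genes. S100a6 rose from 13.54 to 52.8 FPKM, Anxa1 from 9.99 to 31.98, Anxa2 from 6.85 to 17.2 and Anxa8 from 0.391 to 3.16, while S100a10 and S100a11 differed by 0.97 and 0.93.

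**Figure D4:**
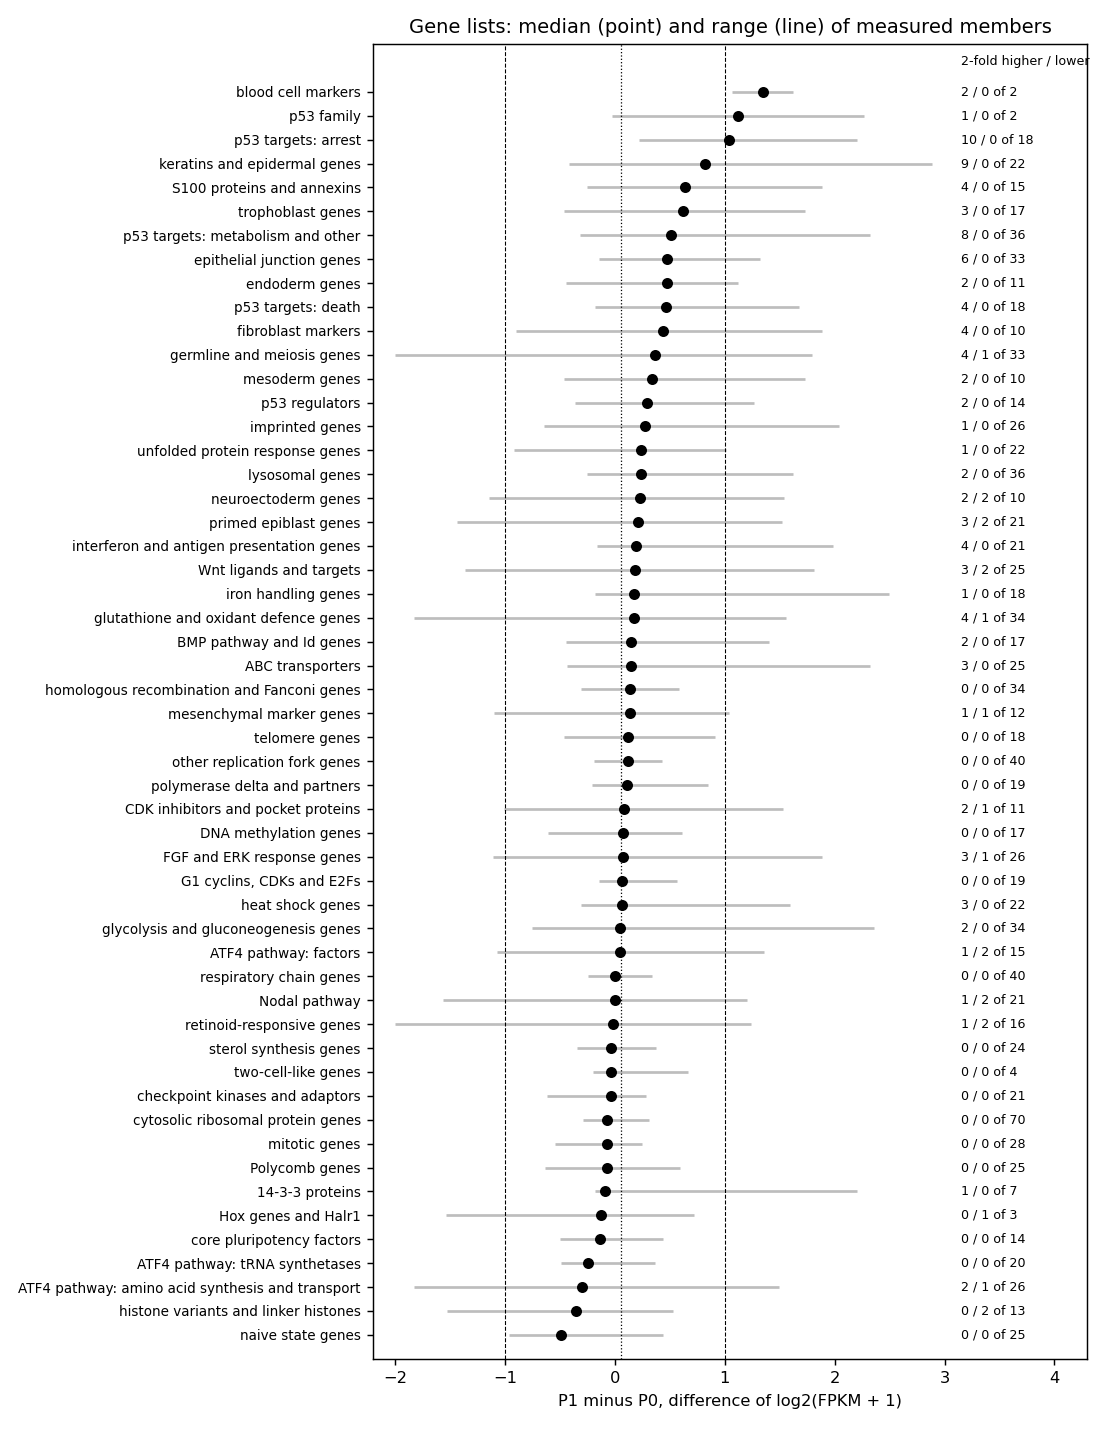
Difference between P1 and P0 in log2(FPKM + 1) (x axis) for 53 gene lists (y axis), with the median of measured members as a point and their range as a line, dashed lines at the 2-fold limits, the median of all genes dotted at 0.06, and the numbers at least 2-fold higher and lower at the right. The highest medians are those of blood cell markers at 1.34 and the p53 family at 1.12, with 2 measured members each, and growth arrest targets of p53 at 1.03, and the lowest is that of naive state genes at -0.49. Members below the floor at P0 had to be higher, which raises medians such as that of epidermal genes.

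Lineage markers were mostly low in both libraries, and members that reached the floor only at P1 had to be higher there. Of 22 trophoblast genes 17 were measured, 12 reached FPKM 1 at P0 and 3 rose, beside 4.12% over all genes. These were the simple keratin gene Krt19 as above, Hand1, from 0.827 to 5.07 FPKM, and Gcm1, from 0.542 to 2.97. Cdx2, which specifies trophoblast, measured 0.171 and 1.004 FPKM, a difference of 0.77 that was 2.02 with a pseudocount of 0.1. Of 11 measured endoderm genes 2 rose, Sparc as above and Cxcr4, a chemokine receptor gene, from 0.604 to 2.49 FPKM, while Gata6 and Sox17 were at 0.537 and 0.258 FPKM at P1. Cxcr4 was at 0.93 under quantile normalization. Of 10 measured mesoderm genes Hand1 and Wnt3 rose, and T, the brachyury gene, measured 0.407 and 0.809 FPKM. Of 10 measured neuroectoderm genes 2 rose and 2 fell, beside 0.549% for falls over all genes. Neurod1 rose from 2.51 to 9.21 FPKM and the Notch ligand gene Dll1 from 1.40 to 3.94, while Pax6 and Sox1, factors of neural progenitors, fell, Pax6 from 4.35 to 1.42 FPKM and Sox1 from 1.91 to 0.401, on 214 and 35 reads. Dll1 was at 0.95 under median-of-ratios scaling and 0.83 under quantile normalization.

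Of 33 germline and meiosis genes measured, of 40 listed, 4 rose and Stra8 fell, beside 4.12% and 0.549% over all genes. Rhox5, an X-linked homeobox gene, rose from 1.55 to 7.82 FPKM, Tex19.1, which restrains retrotransposons, from 31.0 to 84.2, Tex15 from 5.91 to 15.1 and Taf7l from 1.97 to 5.54. Taf7l was at 0.95 under quantile normalization. Dazl and Ddx4, germ cell RNA-binding genes, measured 2.06 and 16.2 FPKM at P0 and 1.995 and 21.1 at P1. Two-cell-like genes, which mark rare cells that resemble the cleavage embryo, did not pass 2-fold in any of 4 measured members of 26, with Zscan4d at 1.25 and 1.05 FPKM. Among imprinted genes Igf2, a fetal growth factor, measured 2.71 and 14.2 FPKM (ratio 5.24, interval 4.31 to 6.42). Its neighbour H19, which is expressed from the other parental allele, differed by 0.78 from 0.849 FPKM (1.27 with a pseudocount of 0.1), Grb10 by -0.65 and Meg3 by 0.69.

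Fibroblast markers held 4 rises among 10 measured of 22 listed, beside 4.12% over all genes: S100a6 as above, Timp3, Col1a1 and Thy1. Col1a1 measured 1.98 and 5.63 FPKM, Timp3, a protease inhibitor gene, 1.80 and 6.27, and Thy1, a surface glycoprotein gene, 4.21 and 9.83. Col1a2, the partner chain of Col1a1, measured 0.282 and 0.629 FPKM and Col3a1 0.143 and 0.123. The summed level of all 22 was 308 FPKM at P0 and 278 at P1, and this sum includes Vim, at 83.7 and 44.3 FPKM. The 10 markers of the cell type check summed to 12.6 and 20.8 FPKM. Thy1 was at 0.94 under median-of-ratios scaling and 0.92 under quantile normalization, and Col1a1 at 0.97 under quantile normalization. The part of feeder cells in the rises of matrix and S100 genes was not tested. Of the blood cell list Cd68, a lysosomal protein gene, rose from 7.44 to 24.9 FPKM and Laptm5, another, from 86.1 to 182, with Ptprc, which marks blood cells as a whole, at 0.0741 and 0.324 FPKM. Laptm5 was at 0.94 under median-of-ratios scaling.

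Genes of detoxification and oxidant defence held 4 rises and 1 fall, that of Chac1, among 34 measured, beside 4.12% and 0.549% over all genes. The glutathione peroxidase genes Gpx3 and Gpx2 rose from 21.97 to 66.5 FPKM and from 19.14 to 47.5 FPKM, and the transferase genes Gstm2 and Gsto1 from 6.66 to 17.2 and from 49.97 to 114. Gpx4, which protects membrane lipids, differed by -0.20 and Gclc, the rate-limiting enzyme of glutathione synthesis, by 0.17. Of 25 measured ABC transporters Abcb1b, Tap1 and Tap2 rose, beside the same 4.12%. Abcb1b and Tap1 are also listed p53 targets, and without such members 1 of 22 rose, with a median of 0.09. Abcc4 and Abcg2, other efflux pumps, differed by -0.44 and -0.21. Tap2, which was below FPKM 1 at P0 and so had to be higher at P1, was at 0.96 under quantile normalization. Slc40a1, the iron exporter ferroportin, measured 1.11 FPKM at P0 and 10.9 at P1 (ratio 9.82, interval 7.02 to 14.1), and was the member past 2-fold among 18 iron genes, a share near the 4.12% over all genes. The transferrin receptor gene Tfrc differed by -0.08 and the ferritin gene Fth1 by 0.37, both within 2-fold.

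Antigen presentation and interferon genes held 4 rises among 21 measured, 18 of them above the floor at P0, beside 4.12% over all genes. Besides Tap1 and Tap2 these were Nlrc5, which activates class I genes, from 0.635 to 3.47 FPKM, and Ifi35, from 0.961 to 3.47. Nlrc5, Ifi35 and Tap2, the last at 0.758 FPKM in P0, were compared only because they were higher at P1. Of the rises, only that of Tap1 started above the floor. B2m, the light chain of class I molecules, differed by 0.94 (1.0029 with a pseudocount of 0.1) and H2-D1 by -0.15. Ifi35 was at 0.99 under quantile normalization. Heat shock genes held 3 rises among 22, beside the same 4.12%. Hspa1b and Hspa1a, near-identical Hsp70 copies that can share reads, measured 6.09 and 1.09 FPKM at P0 and 20.3 and 4.96 at P1, and Cryab, a small heat shock gene, 2.33 and 6.39, with a difference of 0.97 under quantile normalization. Hsp90ab1, at 9072 FPKM in P0, differed by -0.27. Lysosomal genes had a median of 0.23 over 36 members, with rises in Cd68 and Laptm5 and the protease gene Ctsd at 0.58.

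In central metabolism, both fructose bisphosphatase genes rose. These enzymes run a glycolytic step backwards in gluconeogenesis. Fbp1 measured 1.57 FPKM at P0 and 12.2 at P1 (ratio 7.75, interval 5.37 to 11.5), and Fbp2 2.34 and 12.8 (ratio 5.46, interval 4.21 to 7.16). Both were low at P0. They were the members past 2-fold among 34 of glycolysis and gluconeogenesis, a share near the 4.12% over all genes. Pfkp and Pfkm, genes of the opposing enzyme phosphofructokinase, differed by -0.47 and 0.74, the hexokinase gene Hk2 by -0.69 and Pck2, a gluconeogenic enzyme gene, by -0.75. Upp1, which breaks down uridine, stood at 207 FPKM in P0 and fell to 85.8 in P1 (2.41-fold lower, interval 2.26 to 2.57), the most abundant gene among the 15 largest falls. Sterol synthesis genes (24), respiratory chain genes (40) and cytosolic ribosomal protein genes (70) held no call, with medians of -0.03, -0.0011 and -0.07.

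Further genes among the 25 largest rises belonged to no list. Nkx2-9, a homeobox gene of the ventral neural tube, measured 2.49 and 16.7 FPKM, and Col2a1, the collagen of cartilage, 3.77 and 20.8. Ltb4r1 and Ltb4r2, neighbouring receptor genes for leukotriene B4, measured 1.08 and 2.10 FPKM at P0 and 8.94 and 12.7 at P1, and reads of such close genes may not be separable. Scn3b, a sodium channel subunit gene, rose from 1.15 to 8.67 FPKM, the carboxypeptidase gene Cpz from 1.498 to 10.7, the mucin gene Muc3 from 3.10 to 17.2, Sct, the secretin gene, from 2.07 to 12.7 and the iodide transporter gene Slc5a5 from 1.03 to 7.51. Ms4a10 rose from 0.397 to 5.03 FPKM on 7 and 69 reads, and AU015836 from 7.63 to 36.3. Abundant genes that rose included 1700007K13Rik, from 35.8 to 171 FPKM, the transporter gene Slc4a11, from 16.2 to 70.6, and Sdc4, the syndecan-4 proteoglycan gene, from 49.0 to 181. Among the 15 largest falls, further genes outside the lists were Notch4, a Notch receptor gene, from 20.5 to 8.30 FPKM, Dclk2, which encodes a kinase, from 12.3 to 4.86, and Hal, which degrades histidine, from 7.16 to 2.75. The lists together held 85 of the 548 genes that rose and 18 of the 73 that fell.

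**Figure D5:**
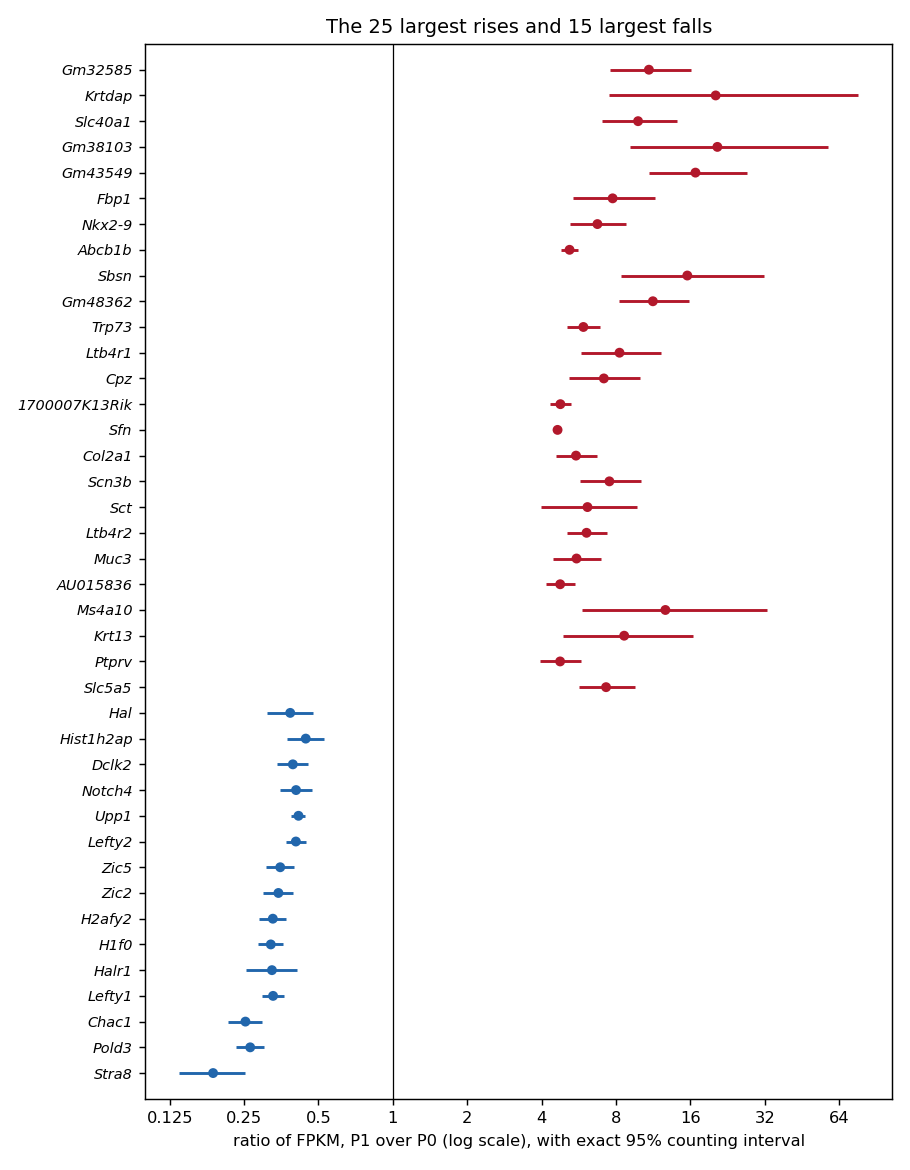
Ratio of FPKM, P1 over P0 (x axis, log scale), for the 25 largest rises (red) and 15 largest falls (blue) by difference of log2(FPKM + 1) among genes that reached FPKM 5 (y axis), with exact 95% counting intervals as lines. The interval of Sfn, from 4.47 to 4.81, is short beside that of Krtdap, from 7.53 to 76.6, which rests on 4 reads at P0.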

How the data were processed

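RNA sequencing of 3 libraries was deposited by the authors as 1 table of FPKM values, of which the columns for P0 and P1 are compared here. Total RNA went into standard Illumina libraries, per the labels' protocols. Bowtie2 2.0.6, TopHat2 2.0.9 and the build mm9 appear, with no role, per the submitters' processing notes. The read counter, annotation and strand setting are unnamed (not given in the sources used here). Gene names, classes and chromosomes came from GENCODE release M21, so no gene coordinates are given, and 49412 of 50043 IDs had a symbol. Promoter windows came from RefSeq, GRCm38.p6.

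Library totals were taken as the commonest value of 1 read among low genes, and whole reads followed for 26291 of 26291 IDs above 0 within a relative tolerance of 1e-09, and for 0 of 325 with changed totals. Lengths were the multiple nearest the mean transcript length, and recovered reads summed to 101% of the total at P0 and 101% at P1. On a gene of 2 kb, 3 reads are worth 0.0646 FPKM at P0 and 0.0831 at P1.

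A pseudocount of 1 was used. Named genes were Pold3, Trp73 and Sfn, the 25 largest rises and 15 largest falls among genes with FPKM of at least 5 without unnamed models, unmatched IDs and short RNA genes, the 6 largest each way at FPKM 50, up to 4 members of each of 53 lists and members central to a list. Further members were named after their values were seen. Lists and members were chosen with earlier results of these data known. The steps were tested on simulated data. Tables were handled in pandas 2.3.3 under Python 3.11.15, intervals came from scipy 1.17.1 with numpy 2.4.6, and figures were drawn with matplotlib 3.10.9. Some members' values are not reported here.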

Additional observations from a re-analysis of the deposited data

How the results depend on the processing

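The counts of 548 rises and 73 falls were recomputed under 8 alternatives. They became 1079 and 175 with a pseudocount of 0.1, and 310 and 32 with a floor of FPKM 5, which compares fewer genes. Falls alone moved by over 1.5 times with quantile normalization (119), without short RNA genes and unnamed models (48) and where the counting interval had to leave out 1 (43). Median-of-ratios scaling gave 429 and 103 and moved the median of all genes from 0.06 to -0.06. Of 128 named genes and list members past 2-fold, 108 stayed past it in each setting that compared them and 0 changed sign. The settings that ended a call of a gene named in the results stand beside it. Changes of sign were looked for only in list medians of at least 0.1 in size, so those of smaller medians are not given. Those that changed sign were the medians of Wnt genes (-0.050 with a floor of FPKM 5 and -0.028 with quantile normalization) and mesenchymal markers (-0.035 and -0.093). So did those of BMP genes (-0.025 with quantile normalization) and Hox genes (0.019 with no floor). With median-of-ratios scaling, polymerase delta and partners (-0.019), other replication fork genes (-0.015) and telomere genes (-0.014) did so too. The cause was not tested. No paired analysis was possible because each passage has 1 library. Depth limits the low genes: on a gene of 2 kb, 3 reads are worth 0.0646 FPKM at P0 and 0.0831 at P1.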

Other observations

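Noncoding genes held some of the largest rises. Gm32585, a long intergenic noncoding RNA gene, measured 1.86 FPKM at P0 and 20.2 at P1 (ratio 10.9, interval 7.56 to 16.1), the largest difference by the rule for named genes. Gm43549 and Gm48362, of the same class, rose from 0.356 to 5.97 FPKM and from 0.591 to 6.67 FPKM, and Gm38103, a transcript still to be classified by the annotation, from 0.299 to 6.15 on 6 and 96 reads. By class, 10 of 199 long intergenic RNA genes rose (5.03%) and 9 of 118 antisense genes (7.63%), against 445 of 12050 protein-coding genes (3.69%). Antisense genes cannot be separated from their partners, as the strand of the counting is not given.

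Short RNA classes had high shares in both directions on few reads. MicroRNA genes had 18 higher and 14 lower of 63, on 437 and 360 reads in all, and snRNA genes 14 and 5 of 47, on 126 and 131. By chromosome, the share that rose ran from 2.05% on X to 5.56% on chromosome 1 among the autosomes and X, and the median difference from -0.02 on chromosome 18 to 0.09 on chromosome 7. By gene length, the share that rose was 5.77% among the shortest of 4 equal groups of genes and 3.34% among the longest, and the share that fell 1.35% and 0.211%.

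The library at P2, which entered no comparison here, held Stra8 at 13.2 FPKM and Cdx1 at 6.38, beside 12.2 and 4.60 at P0. Halr1 stood at 17.2 FPKM at P2, between its values at P0 and P1. Pold3 stood at 11.6, Lefty1 at 20.8 and Chac1 at 2.97 FPKM, beside 13.03, 22.01 and 6.56 at P1.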
